A study of Rattus norvegicus with 6 samples.

Results

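Chromosomes 14 and 17 of the rat were described as the autosomes with the lowest share of fragments captured in contact with a gene promoter on chromosome 13. Every EcoRI fragment listed on them was a member, 60500 of the 759990 fragments outside chromosome 13, with 33691 on chromosome 14 and 26809 on chromosome 17. They were chosen by measured values, namely that share. The low level is therefore given below as a description, without a test.

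The contacts of the promoter were mapped by 4C-seq in cardiac endothelial cells, the cells that line vessels and chambers of the heart. In 4C-seq, chromatin is fixed, cut and re-ligated, and fragments that became joined to 1 viewpoint are amplified and sequenced. One group was the consomic strain SS13BN, in which chromosome 13 comes from the Brown Norway rat and the other chromosomes from the SS rat. The other was the Dahl salt-sensitive strain SS (SS/JrHsdMcwi in the labels). Each strain had 3 libraries, numbered 1 to 3. In both strains the cells were cultured, at passage 2, pooled from males and females, and fixed with 2% formaldehyde for 10 min. Chromosomes 14 and 17 therefore carry SS sequence in both strains, and the strain comparison asks whether the origin of chromosome 13 altered the promoter's contacts with them. Nothing in the labels tells whether the 3 libraries of a strain trace to different animals or culture dishes. The p-values below therefore speak only of the variation among these 6 libraries, part or all of which may be technical.

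In the nucleus each chromosome occupies a territory of its own, and contacts between chromosomes are far rarer than contacts within one. Contacts that do form between chromosomes tend to join chromatin of like activity. Gene-dense active chromatin is commonly found towards the nuclear interior, and gene-poor inactive chromatin towards the nuclear periphery. A viewpoint's contacts with another chromosome are usually read over large stretches of many fragments, since a single fragment is caught rarely.

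A fragment is called captured here when the deposited scores show that it was counted as joined to the viewpoint. How many reads a fragment needed to be counted is not stated in the sources used here, so captured shares hold for the authors' unstated minimum. The captured share outside chromosome 13 lay between 8.76% and 17.4% in the SS13BN libraries and between 9.99% and 12.3% in the SS libraries. Because depth differed, levels are mostly given as the captured share of a region divided by the captured share of all fragments outside chromosome 13 in the same library, called relative capture. A relative capture of 1 is the library's own level. Libraries SS13BN 3 and SS 3 stood apart in that their chromosome 13 was listed at 0 throughout. The window tests, strain comparisons and named windows were also computed without both of them. Changes of a call, or of a value by over 1.5 times, are given beside those results. Bins, blocks, length classes, correlations and counts of fragments by number of libraries were not recomputed in this way. Wilson intervals and limits from a count of 0 cover counting error only. They treat fragments as independent, although captured ones clustered along these chromosomes. Amplified reads are not independent molecules either.

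Chromosome 14 runs to position 115151701 and chromosome 17 to position 92503511 of build rn5. Their EcoRI fragments had median lengths of 2126 bp and 2090 bp, against 2214 bp on the other 17 autosomes. On chromosome 14, captured fragments made up 7.87% (95% Wilson interval 7.59% to 8.17%), 14.1% (13.7% to 14.4%) and 6.99% (6.73% to 7.27%) in SS13BN 1, 2 and 3. They made up 9.86% (9.55% to 10.2%), 8.05% (7.76% to 8.34%) and 9.97% (9.66% to 10.3%) in SS 1, 2 and 3. SS13BN 2, the library with the most captured fragments outside chromosome 13, was also the highest on chromosome 14. On chromosome 17 the shares were 8.25% (7.92% to 8.58%), 14.6% (14.2% to 15.0%) and 6.99% (6.69% to 7.30%) in SS13BN 1, 2 and 3. They were 10.1% (9.71% to 10.4%), 8.08% (7.76% to 8.42%) and 9.75% (9.40% to 10.1%) in SS 1, 2 and 3. The 2 chromosomes held nearly the same share in each library.

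Relative capture brought the libraries together. On chromosome 14 it was 0.794, 0.807 and 0.798 in SS13BN 1, 2 and 3, and 0.799, 0.806 and 0.839 in SS 1, 2 and 3. On chromosome 17 it was 0.832, 0.837 and 0.798 in SS13BN 1, 2 and 3, and 0.815, 0.809 and 0.820 in SS 1, 2 and 3. The means were 0.807 ± 0.0163 for chromosome 14 and 0.818 ± 0.0145 for chromosome 17 (SD, n = 6 libraries), so the 2 chromosomes lay within their spread of each other. The next autosomes in order, just outside the choice, were chromosome 2 at 0.890 ± 0.0179 and chromosome 15 at 0.924 ± 0.0159. Chromosome X lay lower, at 0.748 ± 0.0219, and chromosome 16 was the highest at 1.27 ± 0.0306.

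**Figure D1:**
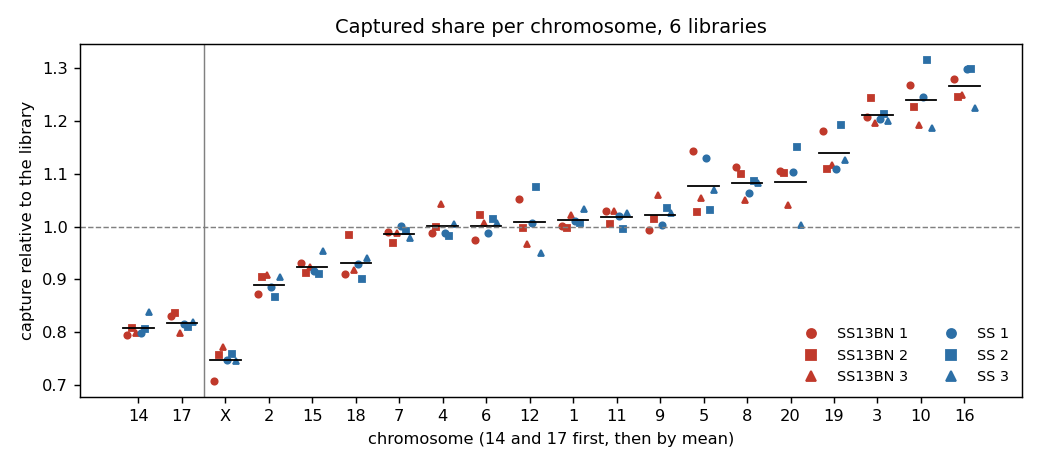
Relative capture (vertical axis, captured share of a chromosome divided by that of its library, no unit) of chromosomes 14 and 17 and then the other chromosomes in order of their mean (horizontal axis), with 1 point per library, SS13BN in red and SS in blue, and black bars at the mean of 6 libraries. Chromosomes 14 and 17, at means of 0.807 and 0.818, are the lowest autosomes, all their points lie below 1, and X lies lower still.

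Fragment length was a measured property that moved with capture, and it differed little between these chromosomes and the others. On chromosome 14, capture averaged 5.65% ± 1.44 among fragments under 1 kb, 8.97% ± 2.72 at 1 to 3 kb, 12.1% ± 3.09 at 3 to 6 kb and 13.7% ± 3.57 over 6 kb (SD, n = 6). On chromosome 17 the same classes averaged 5.26% ± 1.26, 9.26% ± 3.07, 13.4% ± 3.68 and 13.6% ± 3.56. Longer fragments were thus captured more often than the shortest ones on both chromosomes. Within each length class chromosome 14 stood between 0.779 and 0.790 times the level of the other 17 autosomes. Chromosome 17 stood at 0.737, 0.809, 0.860 and 0.784 times, in the same order of classes. With the other autosomes weighted to the same lengths, the ratio was 0.786 ± 0.0173 for chromosome 14, against 0.779 ± 0.0166 without the weighting. For chromosome 17 it was 0.803 ± 0.0140, against 0.790 ± 0.0139.

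**Figure D2:**
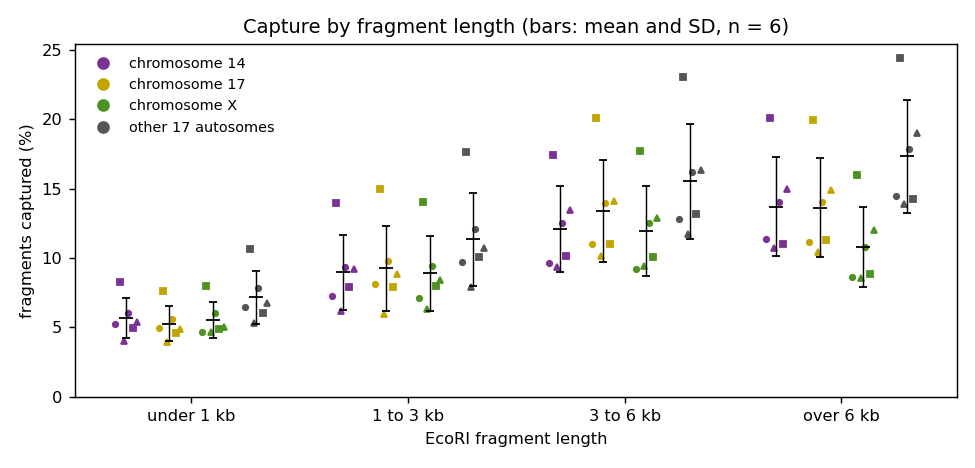
Captured share (vertical axis, percent of fragments) by fragment length class (horizontal axis) for chromosomes 14, 17 and X and the other 17 autosomes, with 1 point per library (circles, squares and triangles for libraries 1, 2 and 3 of each strain) and black bars for the mean and SD of 6 libraries. The means of chromosomes 14 and 17 lie below that of the other autosomes in each class, for example at 5.65% and 5.26% against 7.17% under 1 kb, while the error bars, which hold the depth differences between libraries, overlap.

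The low level was not spread evenly along either chromosome. Chromosome 17 was divided into a beginning above the library level and a long remainder far below it. In bins of 10 Mb, its relative capture was 1.10 ± 0.0833 in the first bin, then 1.33 ± 0.0904, 1.18 ± 0.0502 and 1.12 ± 0.0709 up to 40 Mb (SD, n = 6). The 3 bins from 10 to 40 Mb lay above 1 in all 6 libraries, and the first bin lay above 1 in all but SS13BN 3, at 0.956. From 40 Mb onwards the 6 remaining bins averaged between 0.526 and 0.685, and each lay below 1 in all 6 libraries.

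Taken as 1 block, the first 40 Mb of chromosome 17 had a relative capture of 1.26, 1.21 and 1.10 in SS13BN 1, 2 and 3, and 1.17, 1.20 and 1.16 in SS 1, 2 and 3. The remainder had 0.574, 0.616 and 0.615 in the SS13BN libraries, and 0.604, 0.573 and 0.617 in the SS libraries. Every library placed the first block above 1 and the remainder below 0.62, with no overlap. The first block was between 1.79 and 2.20 times as high as the remainder, depending on the library. It holds 37.4% of the fragments of chromosome 17 and held 54.1% ± 1.85 of the captured ones (SD, n = 6). Its fragments are longer, with a median of 2385.5 bp against 1897 bp in the remainder. Against other autosomes matched on length, the first block stood at 1.12 ± 0.0524 times their level, and the remainder at 0.603 ± 0.0228 times. The bounds of this and the following blocks were chosen after the bins had been seen, so no test is given for them.

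Chromosome 14 had the reverse layout, with a long low beginning and a high stretch late on the chromosome. Its first 5 bins of 10 Mb averaged 0.578, 0.691, 0.547, 0.663 and 0.615, and the next 2 averaged 0.793 and 0.853. The bin from 70 to 80 Mb averaged 1.14 ± 0.0552 and the bin from 80 to 90 Mb averaged 1.50 ± 0.123 (SD, n = 6). Those were the only bins of chromosome 14 above 1 in all 6 libraries. The bin from 80 Mb had 1.61, 1.50 and 1.45 in SS13BN 1, 2 and 3, and 1.50, 1.64 and 1.30 in SS 1, 2 and 3. The next bin as a whole, from 90 to 100 Mb, was low again at 0.673 ± 0.0617, followed by 0.967 ± 0.0410 and 0.856 ± 0.0873 to the end. The bin from 90 Mb still began high, since a run of high windows described below ended at 91000000.

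As a block, the stretch of chromosome 14 from 70 to 90 Mb had a relative capture of 1.30, 1.29 and 1.31 in SS13BN 1, 2 and 3, and 1.31, 1.38 and 1.24 in SS 1, 2 and 3. The first 50 Mb had 0.617, 0.610 and 0.617 in the SS13BN libraries, and 0.601, 0.592 and 0.666 in the SS libraries. The libraries of both strains thus gave the same order of the blocks. The stretch from 70 to 90 Mb holds 15.3% of the chromosome's fragments and held 24.8% ± 1.23 of the captured ones. Matched on length, it stood at 1.23 ± 0.0460 times the level of the other autosomes, and the first 50 Mb at 0.602 ± 0.0258 times. The high stretches of both chromosomes thus exceeded the average of the other autosomes, although the chromosomes as wholes did not.

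**Figure D3:**
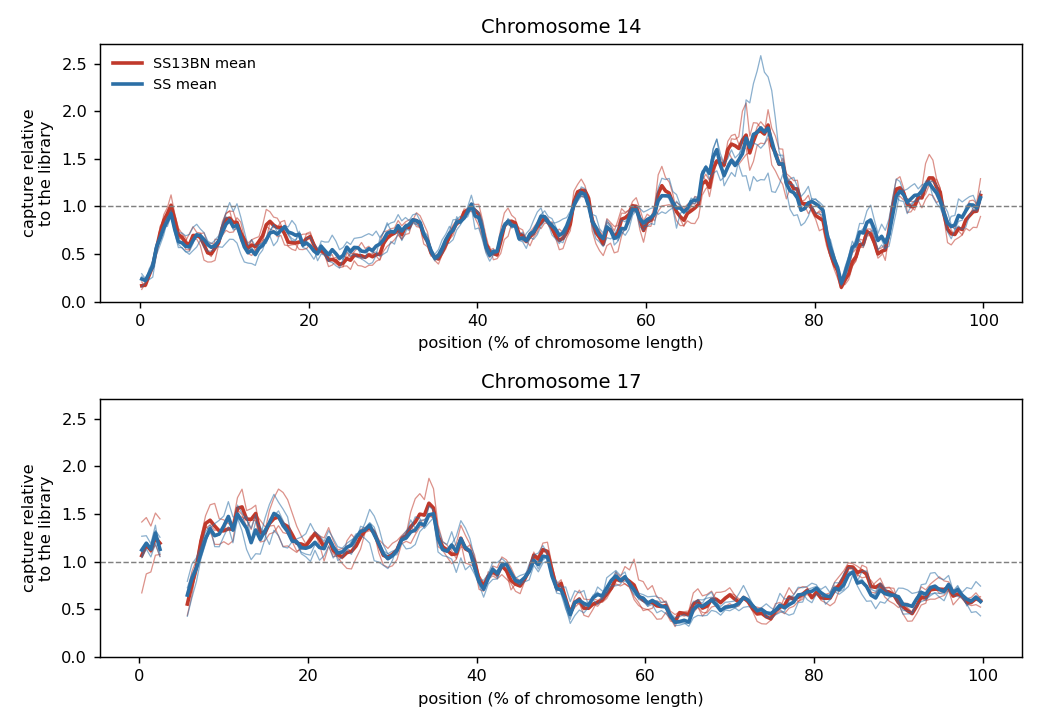
Relative capture (vertical axis, no unit) along chromosomes 14 and 17 (horizontal axis, percent of chromosome length), with each 500 kb window shown as the mean over itself and its neighbours in a run of 5 windows; thin lines are libraries and thick lines the SS13BN and SS means, and lines break where no window was fitted. Chromosome 14 has its high stretch, at 1.29 to 1.31 in the SS13BN libraries and 1.24 to 1.38 in the SS libraries from 70 to 90 Mb, late on its length, and chromosome 17 lies mostly above 1 only in its first 40 Mb.

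The position of the extremes was read from the deposited scores as well. The captured fragments were solved from these same scores, so on both chromosomes this is the same data in another form. Each score is the departure of the captured number in a running window of 501 fragments from what the chromosome's captured share gives, in units of the binomial SD. The highest scores on chromosome 14 were 11.2, 13.3 and 8.23 in SS13BN 1, 2 and 3, and 9.53, 15.7 and 6.57 in SS 1, 2 and 3. They stood at fragments starting at 82363468, 84712456 and 80835806 in the SS13BN libraries, and at 84128830, 84624788 and 77074505 in the SS libraries. The highest point of every library therefore lay in the stretch from 70 to 90 Mb. SS 2 had the highest and SS 3 the lowest of these maxima.

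On chromosome 17 the highest scores were 8.56, 8.09 and 6.65 in SS13BN 1, 2 and 3, and 9.29, 6.80 and 8.31 in SS 1, 2 and 3. They stood at 15370863, 32154943 and 10510484 in the SS13BN libraries, and at 14821019, 11488577 and 32084521 in the SS libraries, all within the first 40 Mb. The lowest scores, between -9.25 and -6.14, all fell on fragments starting between 46146206 and 46231855. On chromosome 14 the lowest scores stood at 48309922 in SS13BN 1, 48198765 in SS 1 and 48309000 in SS 2. In SS13BN 2, SS13BN 3 and SS 3 they stood at the first fragment of the chromosome, where part of the running window lies beyond the chromosome and counts as not captured.

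Windows of 500 kb were then tested against the captured share of their own chromosome, which removes the low level by which the chromosomes were chosen. The test was limma on the log2 ratio of the captured to the expected number over all 6 libraries, with Benjamini-Hochberg adjustment over 5303 windows of all chromosomes. On chromosome 14, 74 of 230 windows passed as higher (32.2%) and 68 as lower (29.6%). On chromosome 17, 65 of 180 windows passed as higher (36.1%) and 60 as lower (33.3%). Over all chromosomes 30.0% of windows passed as higher and 23.9% as lower. The shares of chromosome 14 were near that background for higher windows and above it for lower ones, and those of chromosome 17 were above it for both. Whether these shares differ from those of other chromosomes was not tested.

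The block bounds were drawn from bins of the same captured fragments, so calls within blocks restate that layout in counts and are no test of it. In the first 40 Mb of chromosome 17, 57 of 75 windows passed as higher and 6 as lower. In the remainder, 8 of 105 passed as higher and 54 as lower. On chromosome 14, 34 of the 40 windows from 70 to 90 Mb passed as higher and 1 as lower, and in the first 50 Mb 10 of 100 passed as higher and 44 as lower. The SD of the log2 ratio over windows was 0.83 on chromosome 14 and 0.74 on chromosome 17, the third and the seventh widest of the 20 chromosomes tested. Windows with very few captured fragments enter these SDs, down to log2 ratios of -4.27 and -4.45. On the other 17 autosomes the lowest was -7.77.

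Set against the library level in place of the chromosome's, few windows were high. On chromosome 14, 20 of 230 windows (8.70%) lay above 1 in all 6 libraries and 104 (45.2%) lay below 1 in all 6. On chromosome 17, 30 of 180 (16.7%) lay above and 79 (43.9%) below, and 28 of those 30 lay in the first 40 Mb. On the other 17 autosomes 25.4% lay above and 21.1% below. These shares follow from the choice of the chromosomes and are given as a description.

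Higher windows of chromosome 14 formed 1 long run. It covered 24 consecutive windows from 79000001 to 91000000, with a mean relative capture of 1.52. The next longest runs of higher windows there, from 59000001 to 61500000 and from 70000001 to 72500000, had 5 windows each. Runs of lower windows were shorter, with 7 windows from 30500001 to 34000000 at a mean of 0.524 and 7 from 94500001 to 98000000 at 0.301. The lower run from 94500001 lies shortly after the end of the long higher run.

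On chromosome 17 the higher windows were split into several runs. The longest had 12 windows from 27500001 to 33500000, at a mean relative capture of 1.37. It was followed by 10 windows from 11500001 to 16500000 at 1.45 and 8 windows from 22500001 to 26500000 at 1.28. The longest run of lower windows had 9 windows from 67500001 to 72000000, at 0.487. The lowest of the longer runs, 5 windows from 57500001 to 60000000, averaged 0.368. That mean includes the window from 59000001, described below, at 0.101 and with a median fragment length of 97 bp.

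The window of chromosome 14 furthest above its chromosome ran from 81500001 to 82000000 and holds 119 fragments. It had 38, 35 and 29 captured fragments in SS13BN 1, 2 and 3, and 35, 31 and 27 in SS 1, 2 and 3. The chromosome's own share would give 9.37, 16.7 and 8.32 in the SS13BN libraries, and 11.7, 9.58 and 11.9 in the SS libraries. The window's log2 ratio was 1.58 (SE 0.12, adjusted p = 4.42e-11 by limma). With the variance trend of the fit on the expected number, the adjusted p was 2.68e-06. Its relative capture was 2.43 ± 0.566 (SD, n = 6). All 6 libraries exceeded the number from the chromosome's share. The highest and lowest windows were named only where all 6 libraries lay on 1 side, so this was fixed by the choice.

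The next highest windows of chromosome 14 began at 84500001, 79000001, 86500001 and 77500001, with log2 ratios of 1.41, 1.41, 1.36 and 1.23. Their median fragment lengths were 3544, 3135, 4135 and 2801 bp, against 2126 bp over the chromosome. With the expectation set by fragment length, their log2 ratios were 1.23, 1.26, 1.18 and 1.14, all past the threshold. The window from 81500001, with a median of 2398 bp, had 1.50 in that fit. The window from 84500001 had 21, 36 and 19 captured of 97 fragments in SS13BN 1, 2 and 3, and 21, 24 and 22 in SS 1, 2 and 3. The window from 79000001 had 22, 35 and 21 of 97 in the SS13BN libraries, and 23, 22 and 19 in the SS libraries. Both were above the expected number in all 6 libraries, which the rule for naming them requires. Around them the libraries of SS differed: from 83500001 to 87000000, relative capture was 1.83, 1.81 and 1.66 in SS13BN 1, 2 and 3, and 1.72, 2.47 and 1.28 in SS 1, 2 and 3. SS 2 was the highest and SS 3 the lowest there, with the 3 SS13BN libraries between them. That stretch was chosen after its values were seen.

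The lowest window of chromosome 14 was its first, from 1 to 500000. It had 0, 0 and 0 captured of 137 fragments in SS13BN 1, 2 and 3, and 0, 2 and 0 in SS 1, 2 and 3. The chromosome's share would give between 9.58 and 19.3 captured fragments. A count of 0 of 137 allows a share of up to 2.19% (3 counts per library). The fitted log2 ratio of -4.27 (SE 0.37, adjusted p = 1.54e-10) depends on the 0.5 added to each count. The neighbouring window from 500001 was also low, with 3, 1 and 1 of 186 in the SS13BN libraries, and 8, 1 and 1 in the SS libraries.

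Away from that end, the window from 101000001 had 2, 0 and 1 captured of 220 fragments in SS13BN 1, 2 and 3, and 1, 5 and 2 in SS 1, 2 and 3. Its median fragment length was 777.5 bp. The window from 96500001, in the lower run after the high stretch, had 1, 3 and 0 of 137 in the SS13BN libraries, and 1, 2 and 1 in the SS libraries. Its fragments were of usual length, with a median of 2318 bp. Their log2 ratios were -3.46 (SE 0.37) and -3.01 (SE 0.31), with adjusted p-values of 8.37e-09 and 4.35e-09. The last window of chromosome 14, from 114500001, was 0.28 above its chromosome (SE 0.12, adjusted p = 0.0432) and lay above it in 5 of 6 libraries. This call was lost under 8 alternatives, with adjusted p-values between 0.0721 and 0.161.

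On chromosome 17 the window furthest above its chromosome ran from 11500001 to 12000000. It had 29, 31 and 21 captured of 110 fragments in SS13BN 1, 2 and 3, and 33, 18 and 18 in SS 1, 2 and 3. The log2 ratio was 1.27 (SE 0.12, adjusted p = 1.06e-09 by limma), and the relative capture was 1.98 ± 0.513 (SD, n = 6). With the variance trend on the expected number, the adjusted p was 1.78e-05. The next was the window from 35000001, with 28, 43 and 17 of 149 in the SS13BN libraries, and 25, 29 and 40 in the SS libraries. All 6 libraries were above expectation in both, which the rule for naming windows requires. The windows from 31000001, 32500001 and 10500001 followed, with log2 ratios of 1.08, 1.05 and 1.03. In order of rank, the 5 windows had median fragment lengths of 2937.5, 2254, 3311.5, 2237 and 3644 bp, against 2090 bp over the chromosome. With the expectation set by fragment length, their log2 ratios were 1.13, 1.05, 0.919, 1.01 and 0.818, all past the threshold. Rank by rank, the 5 highest windows of chromosome 17 were less far above their chromosome than those of chromosome 14, a difference that was not tested.

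The lowest window of chromosome 17, from 46000001 to 46500000, had 1015 fragments with a median length of 93 bp. It had 9, 2 and 5 captured in SS13BN 1, 2 and 3, and 7, 1 and 4 in SS 1, 2 and 3. The window from 59000001 had 6, 15 and 5 captured of 624 in the SS13BN libraries, and 7, 6 and 7 in the SS libraries, and its median length was 97 bp. Their log2 ratios were -4.45 (SE 0.38, adjusted p = 1.31e-10) and -2.93 (SE 0.28, adjusted p = 1.57e-09). The window of chromosome 14 from 48000001 was of the same kind. Its 519 fragments had a median length of 93 bp, and it had 5, 11 and 6 captured in the SS13BN libraries, and 4, 3 and 8 in the SS libraries.

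These 3 windows hold many fragments of nearly 1 length, which is the spacing of EcoRI sites in them. Fragments of 92 or 93 bp numbered 495 of 1015 in the window from 46000001 on chromosome 17, 224 of 624 in the one from 59000001, and 202 of 519 in the one from 48000001 on chromosome 14. In the last of these, none of 266 fragments of 100 bp or less was captured in any library, which allows a share of up to 1.13% per library. With fragments of 100 bp or less left out, the log2 ratios of the windows were -3.27, -2.35 and -1.98, and all 3 stayed past the threshold. The fragments left in were still short, with medians of 275, 276 and 278 bp. All fragments over 100 bp had medians of 2341 bp on chromosome 17 and 2316 bp on chromosome 14. The removal therefore did not bring these windows to the usual length. Fragments of 100 bp or less made up 5.73% of chromosome 14, 8.10% of chromosome 17 and 5.33% of the other 17 autosomes. How well reads can be placed on such fragments was not tested.

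The other low windows named on chromosome 17 had longer fragments. The windows from 68500001, 48000001 and 5000001 had log2 ratios of -1.50 (SE 0.28), -1.39 (SE 0.22) and -1.33 (SE 0.23), and median lengths of 1858, 1512 and 2328 bp. The window from 68500001 had 1 captured fragment of 155 in SS13BN 2, and without that library its log2 ratio was -0.998 (adjusted p = 0.000555 by limma). The window from 5000001 lies just past the longest fragment of chromosome 17, which runs from 2440481 to 4848105, is 2407625 bp long and was captured in no library. Whether it is a gap of the assembly was not tested. The first window of chromosome 17 had 10, 16 and 2 captured of 122 in SS13BN 1, 2 and 3, and 7, 5 and 7 in SS 1, 2 and 3, with a log2 ratio of -0.67 (SE 0.19, adjusted p = 0.00405). Without SS13BN 3 its log2 ratio was -0.382 (adjusted p = 0.0532), and without both libraries numbered 3 it was -0.400 (adjusted p = 0.0702). The last window, from 92000001, had a log2 ratio of -0.30 (SE 0.17, adjusted p = 0.128). It passed without SS 3, at -0.446 (adjusted p = 0.0445), and without both libraries numbered 3, at -0.554 (adjusted p = 0.0196).

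Across windows, the log2 ratio and the median fragment length had a Spearman coefficient of 0.401 on chromosome 14 (230 windows) and 0.431 on chromosome 17 (180 windows). With the number of fragments per window the coefficients were -0.336 and -0.411. Windows of 1 chromosome share their libraries and their neighbours' base composition, so these are descriptions.

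Single fragments recurred between libraries. On chromosome 14, 400 fragments (1.19%) were captured in all 6 libraries and 23007 (68.3%) in none. On chromosome 17, 328 (1.22%) were captured in all 6 and 18476 (68.9%) in none. On the other 17 autosomes the shares were 1.56% and 62.0%. The fragments captured in all 6 libraries were long, with medians of 4238 bp on chromosome 14 and 3873.5 bp on chromosome 17, against 2126 and 2090 bp for all fragments. Of them, 56.5% on chromosome 14 and 59.8% on chromosome 17 lay in higher windows, which hold 29.3% and 32.1% of all fragments. The other 17 autosomes were alike in both respects. Their fragments captured in all 6 libraries had a median of 4597 bp, against 2214 bp for all. Of those, 50.5% lay in higher windows, which hold 26.5% of all fragments there. These windows were called on the same libraries, so this overlap is a description.

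**Figure D4:**
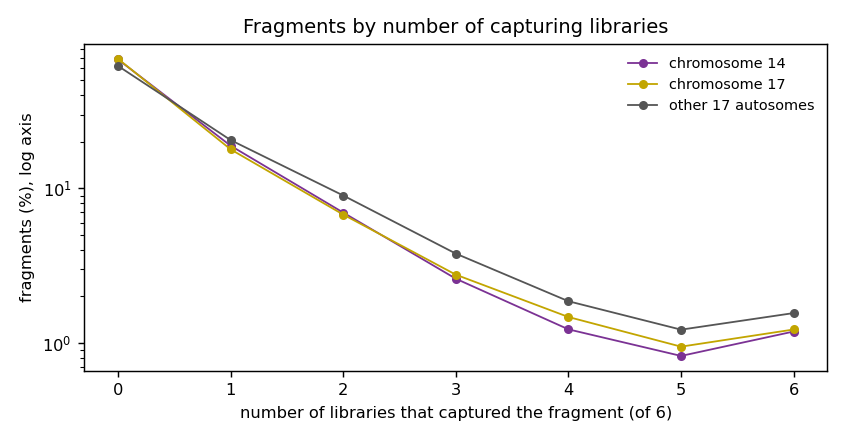
Share of fragments (vertical axis, percent, log scale) by the number of libraries that captured them (horizontal axis, 0 to 6) for chromosomes 14 and 17 and the other 17 autosomes. Chromosomes 14 and 17 have more fragments captured in no library, 68.3% and 68.9% against 62.0%, and fewer captured in all 6, 1.19% and 1.22% against 1.56%.

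Of the fragments captured in all 6 libraries, those with the most captured neighbours lay in the windows already named. On chromosome 14 they were the fragments from 81728710 to 81729291, from 81754025 to 81759004 and from 81870670 to 81872436. Among the 25 fragments on either side, summed over 6 libraries, 107, 102 and 94 of 300 states were captured, against a median of 27 over all fragments of the chromosome. On chromosome 17 they were the fragments from 31480944 to 31483251, from 31495463 to 31498679 and from 31494543 to 31495462, with 85, 85 and 84 of 300 against the same median of 27. The last 2 adjoin each other, so their neighbourhoods share nearly all fragments. Windows and neighbourhoods were ranked on the same captured states, so that these fragments lay in named windows is a description.

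The strains were compared next, over windows fitted on all chromosomes together. No window of chromosome 14 (0 of 230) or of chromosome 17 (0 of 181) differed between SS13BN and SS by limma with a Benjamini-Hochberg adjusted p under 0.05, and of all 5296 windows 0% did. At an unadjusted p under 0.05 there were 6 windows on chromosome 14 and 3 on chromosome 17, against 160 of 5296 on all chromosomes, or 3.02%. The smallest adjusted p was 0.999. The libraries of the strains did not overlap in 22 windows of chromosome 14 (9.57%) and 11 of chromosome 17 (6.08%), and over all chromosomes in 7.80%. The median half-width of the 95% interval was 0.59 on the log2 scale on chromosome 14 and 0.60 on chromosome 17, without adjustment for the number of windows.

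The window with the smallest unadjusted p on chromosome 14 ran from 97500001 to 98000000. It had 5, 15 and 8 captured of 181 fragments in SS13BN 1, 2 and 3, against 17, 13 and 22 in SS 1, 2 and 3. The log2 difference, SS13BN minus SS, was -0.94 (SE 0.30, adjusted p = 0.999). The SS13BN libraries were lower once each library was scaled to the same total. On chromosome 17 it was the window from 60000001, with 12, 22 and 14 of 151 in the SS13BN libraries, against 6, 7 and 12 in the SS libraries, a difference of 0.86 (SE 0.31, adjusted p = 0.999). Both windows lay in stretches of low capture. The others with the smallest p, from 87500001 and 57500001 on chromosome 14 and from 18500001 and 13000001 on chromosome 17, differed by 0.54, -0.66, 0.58 and 0.54, each with an adjusted p of 0.999.

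**Figure D5:**
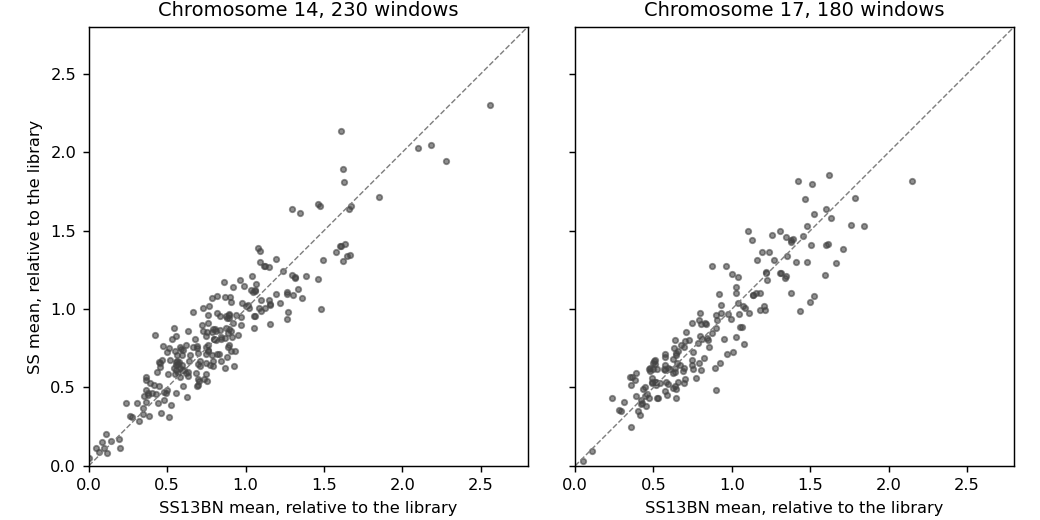
Relative capture of each 500 kb window as the mean of the 3 SS13BN libraries (horizontal axis) and of the 3 SS libraries (vertical axis), with 1 point per window (230 on chromosome 14, 180 on chromosome 17) and a dashed line of equal values. Points lie on both sides of the line, the fitted log2 differences, SS13BN minus SS, ranged from -0.94 to 0.87 on chromosome 14 and from -0.65 to 0.86 on chromosome 17, and none passed the adjusted threshold.

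The chromosomes as wholes did not differ detectably either. By limma over the 20 chromosomes, of which 0% passed, chromosome 14 had a log2 difference of -0.03 (SE 0.03, adjusted p = 0.953) and chromosome 17 one of 0.01 (SE 0.04, adjusted p = 0.953). The 95% intervals of the fold, SS13BN over SS, were 0.936 to 1.03 and 0.954 to 1.07. The unadjusted p-values of this limma fit were 0.459 and 0.754. Without both libraries numbered 3 the log2 differences were -0.00295 and 0.0389 (adjusted p = 0.935 and 0.751).

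The layout along the chromosome was compared by the share of captured fragments below the middle coordinate. On chromosome 14, below position 57575850, it was 42.0%, 40.6% and 41.1% in SS13BN 1, 2 and 3, and 40.4%, 39.8% and 42.1% in SS 1, 2 and 3. That part holds 51.6% of the fragments, so it was under-represented in all 6 libraries. On chromosome 17, below position 46251755, it was 64.9%, 62.8% and 60.5% in the SS13BN libraries, and 62.4%, 63.6% and 61.1% in the SS libraries, against 48.0% of fragments. The strain means were 41.2% ± 0.711 for SS13BN and 40.8% ± 1.20 for SS on chromosome 14, and 62.7% ± 2.24 for SS13BN and 62.4% ± 1.26 for SS on chromosome 17 (SD, n = 3 each).

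The differences of 0.440 and 0.369 percentage points were smaller than the spread between libraries, with two-sided exact permutation p-values of 0.6 and 0.9 (both 0.9 after adjustment over the 2 tests). With 3 against 3 libraries the smallest p such a test allows is 0.1. Without both libraries numbered 3 the differences were 1.17 and 0.863 percentage points, with exact permutation p-values of 0.333 and 0.667, of which 0.333 is the smallest that 2 against 2 libraries allow. The libraries ordered the windows of chromosome 14 alike, with a Spearman coefficient of 0.713 ± 0.0642 between libraries of 1 strain (6 pairs), and 0.767 ± 0.0152 between libraries of the same number (3 pairs) and 0.718 ± 0.0477 between libraries of other numbers (6 pairs) across strains. On chromosome 17 these were 0.738 ± 0.0491, 0.780 ± 0.0235 and 0.750 ± 0.0433. Pairs within a strain did not have higher coefficients, on average, than pairs across strains. All pairs share the chromosome's fragments, so these coefficients are descriptions.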

How the data were processed

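The authors deposited 1 score per EcoRI fragment for each of 6 libraries. The submitters' processing notes name build rn5 and CASAVA 1.8. For aligner, read filters and scoring program, the sources used here give no name. Positions of single fragments are as deposited, with the first base counted as 0, so a genome browser may show them shifted by 1 base.

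Each deposited score was found to be the captured number in a window of 501 fragments, minus its expectation from the captured share of the chromosome, in binomial SDs, with fragments beyond a chromosome's end counted as not captured. Solving this for each fragment rebuilt 100% of the scores of every library on the 20 chromosomes other than 13. Per-fragment read numbers there were not analysed here. Genes and sequences were not placed, because no rn5 annotation was used here.

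Windows against their own chromosome were tested with limma 3.58.1 in R 4.3.3 on log2((captured + 0.5) / expected). Windows needed a mean expected number of at least 5. The variance trend of this fit followed the mean log2 ratio, which is the tested effect and no measure of intensity. With the trend on the expected number instead, the adjusted p of every named window tested against its chromosome was larger. Strain differences were tested with limma on log2(captured + 1) after scaling to the mean library total, for windows with a mean of at least 1. A fold on that scale understates changes of low values. The threshold was a Benjamini-Hochberg adjusted p of 0.05. The fits were tested on simulated data. Tables and plots were made in Python 3.11.15 with scipy 1.17.1, pandas 2.3.3, numpy 2.4.6 and matplotlib 3.10.9.

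On each chromosome the text names the first and last windows and the 5 highest and 5 lowest windows past the threshold with 1 sign in all 6 libraries. It also names the 3 windows with the smallest strain p where none passed, and the 3 fragments captured in all 6 libraries with the most captured states nearby. Other features are said to be chosen after their values were seen. The chromosomes, lists and tests were chosen with earlier results of these data known. Window size, filter, pseudocount, scaling, expectation by fragment length, a replicate block and leaving out each library were tried as alternatives.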

Additional observations from a re-analysis of the deposited data

Results flagged for a closer look

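Of 49 values per library on chromosomes 14 and 17 that were examined for a single library far from the other 5, 4 had a gap to the nearest library above Dixon's 95% critical value, a bound that chance passes in about 1 in 20 groups of 6. On chromosome 14 as a whole, SS 3 had a relative capture of 0.839, and the other libraries lay between 0.794 and 0.807. In the bin of chromosome 14 from 30000001, SS 3 had 0.775, against 0.625 to 0.670 in the others. In the first window of chromosome 14, SS 2 had 0.146 and the others had 0, a difference of 2 captured fragments. In the window of chromosome 17 from 59000001, SS13BN 2, the library with the most captured fragments, had 0.138, against 0.0909 to 0.0970 in the others.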

How the results depend on the processing

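Of 126 alternative values of the main comparisons, 121 kept their direction and their side of the threshold, or stayed within 1.5 times the main count. The exceptions follow. With 250 kb windows, 22.2% of windows of chromosome 17 passed as lower, against 33.3%. The other shares also fell with 250 kb windows, though by less than 1.5 times. They were 30.5% for higher windows of chromosome 17, and 25.5% and 22.7% for higher and lower windows of chromosome 14. Of the strain differences that missed the threshold, 4 changed sign. The difference in the share below the middle coordinate became -0.0581 percentage points on chromosome 14 without SS 2. On chromosome 17 it became -0.744 without SS13BN 1 and -0.269 without SS 3. The difference of the whole chromosome 17 became -0.000452 on the log2 scale without SS13BN 2. All-chromosome shares are not given for the alternative fits, so the 30.0% and 23.9% of the main fit are no background for them. Leaving out each library in turn, the share of higher windows ranged from 27.8% to 30.4% on chromosome 14. On chromosome 17 it ranged from 33.3% to 37.8%. The share of lower windows ranged from 23.9% to 26.5% and from 28.3% to 32.8%. Over the same fits, the whole-chromosome strain difference ranged from -0.0398 to -0.00456 on chromosome 14 and from -0.000452 to 0.0344 on chromosome 17. The difference in the share below the middle ranged from -0.0581 to 1.11 and from -0.744 to 1.50 percentage points. No strain window passed in any of these fits, 0 to 0 on both chromosomes. With the replicate number as a replicate block, 74 windows of chromosome 14 passed as higher and 70 as lower, 66 and 60 did on chromosome 17, and 0 strain windows passed, with 7 and 5 at an unadjusted p under 0.05. The numbers are not stated to pair the libraries. Deviations of same-numbered libraries correlated at 0.0875, 0.130 and 0.0834 over 5296 windows, not all above 0.1, although each library correlated best with its own number. The trend on the expected number, the removal of fragments of 100 bp or less and the removal of both libraries numbered 3 were chosen after seeing the data. Between 8.76% and 17.4% of fragments were captured per library, so windows of low capture rest on few captured fragments.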
